A study of Mus musculus with 2 samples.

Results

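miR-28 and miR-151 are microRNAs (miRNAs) cut from related hairpin precursors, and their reads were examined in small RNA from mitochondria isolated from mouse heart. The rule took every entry whose name, without the species prefix, begins with miR-28-, miR-28a-, miR-151a-, miR-151- or miR-151b, and it found 7 of 851 named entries. These are hsa-miR-28-5p, hsa-miR-28-3p and mmu-miR-28a-3p for the miR-28 precursor, and hsa-miR-151a-5p, hsa-miR-151a-3p and mmu-miR-151-3p for the miR-151 precursor. hsa-miR-151b is counted with miR-151 by its name, and its precursor was not checked. All material is from mouse, and the prefixes hsa (human) and mmu (mouse) are names used in the deposited tables. The study sets the mitochondrial miRNAs of STZ-treated mice (streptozotocin kills the insulin-producing cells of the pancreas and makes the animals diabetic) against those of control mice, in a study of diabetic cardiomyopathy. Each group is 1 library from whole heart mitochondria; strain, age, dose, time after STZ and the number of hearts in a library are not stated in the labels. The members were chosen by measured values of these same libraries, the reads of both arms of miR-28 and miR-151 in the STZ and control libraries, so the values below describe 2 libraries and no p-value is given.

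A miRNA hairpin is cut by Dicer into a short duplex of a 5p and a 3p strand. As a rule, the strand that is loaded into an Argonaute protein is kept as the guide, and the opposite strand is lost more quickly. The guide pairs with messages mainly through its seed, the bases near its 5′ end. Both precursors derive from an old LINE-type repeat and sit in introns of genes for proteins of focal adhesions, the sites where a cell holds on to its matrix. Mir28a lies in Lpp, which encodes a LIM-domain adaptor, and Mir151 in Ptk2, which encodes focal adhesion kinase. In human liver cancer cells miR-151 is known to be made together with PTK2 and to promote migration, and in human colorectal cancer cells the 5p and 3p strands of miR-28 have been described with different targets.

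On the mouse build GRCm38 (GENCODE M21), Mir28a spans chromosome 16 from 24827855 to 24827940 on the plus strand. None of the 3 annotated Lpp transcripts that span it has an exon there, so it is intronic in all of them. Mir151 spans chromosome 15 from 73254815 to 73254882 on the minus strand, and none of the 5 spanning Ptk2 transcripts has an exon there. The submitters' processing notes name GRCm39, and these GRCm38 positions serve only to place the genes. Of 4 mature strands looked for, 2 were matched in RefSeq (GRCm38.p6), those of miR-28a. They are printed with those of miR-708, from an intron of Tenm4, and of miR-28b, to show how far the seed is shared; capitals mark the seed, bases 2 to 8.
mmu-miR-28a-5p: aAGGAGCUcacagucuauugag
mmu-miR-708-5p: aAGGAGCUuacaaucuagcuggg
mmu-miR-28b: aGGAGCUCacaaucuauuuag
mmu-miR-28a-3p: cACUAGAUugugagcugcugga
mmu-miR-708-3p: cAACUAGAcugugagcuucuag
The 5p strands of miR-28a and miR-708 have the same seed, AGGAGCU, and are the only 2 of 1738 mature mouse strands in that table that do. They are identical at 16 of 22 bases when aligned from the 5′ end. miR-28b starts at the second base of miR-28a-5p and matches it at 19 of 21 bases, so its seed is shifted by 1 base. The 3p strands of miR-28a and miR-708 have different seeds but match at 17 of 21 bases when offset by 1. Within miR-28a, bases 5 to 12 of the 5p strand are the exact complement of bases 9 to 16 of the 3p strand.

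The STZ library held 706860 assigned reads and the control library 508182. These totals and all read counts given here were recovered from the deposited scaled values. Levels are in RPM, reads scaled to a library total of 1000000, so that a single read equalled 1.41 RPM in the STZ library and 1.97 RPM in the control. All 95% intervals reflect counting error alone: the protocol mentions no molecular identifiers, and PCR copies are not separate molecules. The labelled tissue was checked against the muscle miRNA miR-1-3p, which ranked first of the named entries in both libraries, at 25.3% of STZ reads and 20.9% of control reads. Also checked were miR-133a-3p, at rank 2 in both libraries, and miR-499a-5p, at rank 31 (STZ) and 32 (control). miR-208a-3p had 76.4 RPM in the STZ library and 153 RPM in the control, a ratio of 0.498 (0.345 to 0.713). miR-208a-5p, of the same precursor, had a ratio of 0.923 (0.732 to 1.17). Of liver and gut miRNAs, picked after the data were seen, miR-122-5p had 73.6 RPM (STZ) and 787 RPM (control). miR-192-5p had 402 RPM (STZ) and 986 RPM (control), and miR-194-5p had 395 RPM and 1346 RPM. miR-122-3p went the other way, on 5 STZ reads and 1 control read. Whether the 2 libraries held the same mix of tissue was not tested. In RNA from a whole isolate, a smaller share of mitochondria or cells of a kind and less of a miRNA in each cannot be told apart, and carry-over of miRNA from outside mitochondria was not tested.

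The 7 members together held 0.496% of STZ reads and 0.569% of control reads. miR-151 supplied most of them, with 2994 STZ reads and 2499 control reads over its 4 entries, and miR-28 had 509 and 393 over its 3 entries. The miR-151 to miR-28 ratio was 5.88 in the STZ library and 6.36 in the control. The odds ratio between the libraries was 0.925 (exact 95% interval 0.800 to 1.07). Over all entries, a difference in the balance of miR-151 and miR-28 reads was thus not detectable at this depth. For the 5p strands alone, miR-151a-5p over miR-28-5p was 5.41 in the STZ library and 6.41 in the control. That odds ratio was 0.844 (0.719 to 0.991), an interval that leaves out 1.

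The 5p strands, the more abundant arm of both precursors, were less than 2-fold apart between the 2 libraries. hsa-miR-151a-5p had 2387 reads (3377 RPM) in the STZ library and 1987 reads (3910.0 RPM) in the control, which placed it 38th and 34th among the named entries. Its STZ to control ratio was 0.864 (exact conditional binomial interval 0.813 to 0.917). hsa-miR-28-5p, whose mouse strand carries the seed AGGAGCU, had 441 reads (624 RPM) in the STZ library and 310 reads (610.0 RPM) in the control, at ranks 74 and 76. Its ratio was 1.02 (0.882 to 1.19), an interval that includes 1.

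hsa-miR-151b was the only one of the 7 members whose ratio had an interval above 1. Among the 275 named entries with at least 20 reads over both libraries, 32.0% had such an interval. In the human annotation miR-151b is a short name for a sequence that also begins miR-151a-5p, so reads under both names may come from the same strand and the split between them is uncertain. hsa-miR-151b had 295 reads (417 RPM) in the STZ library and 143 reads (281 RPM) in the control, a ratio of 1.48 (1.21 to 1.82). Per read of miR-151a-5p, this was 12.4% in the STZ library and 7.20% in the control, an odds ratio of 1.72 (1.39 to 2.13). Added together, the entries had 2682 STZ reads and 2130 control reads, and the ratio was 0.905 (0.855 to 0.959), on the side of miR-151a-5p.

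**Figure D1:**
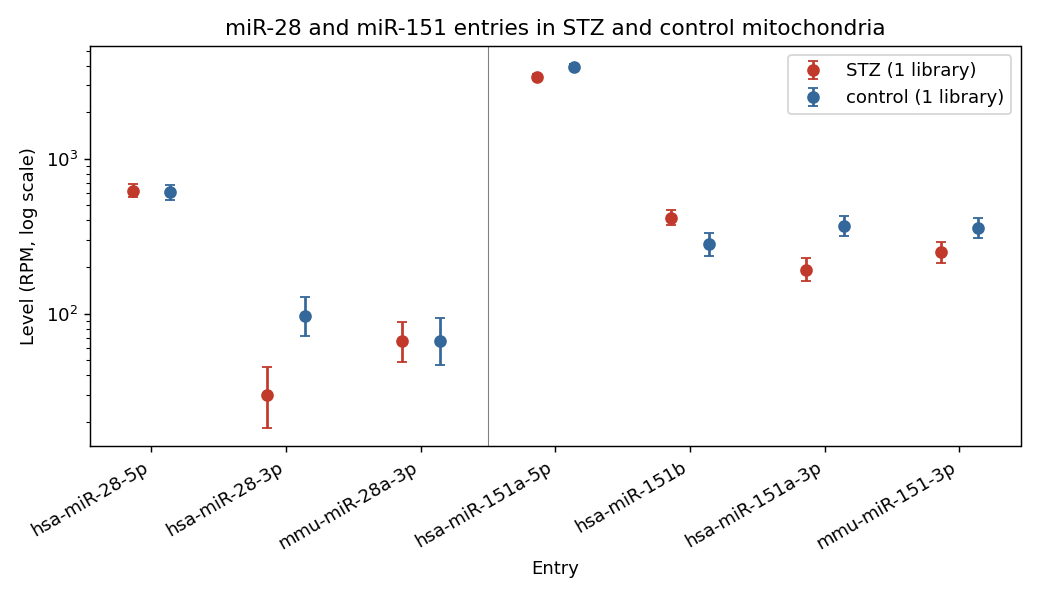
Level of each entry in RPM (log axis) in the STZ library (red, left) and the control library (blue, right); points are 1 library each and bars are exact 95% Poisson intervals, counting error only. The intervals of hsa-miR-151a-5p, hsa-miR-28-3p, hsa-miR-151a-3p and mmu-miR-151-3p lie lower in the STZ library without overlap, those of hsa-miR-151b lie higher, and those of hsa-miR-28-5p and mmu-miR-28a-3p overlap.

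The 3p strands, the less abundant arm, had a ratio with an interval below 1 under 3 of their 4 names, which stand for 2 strands. Among all 139 entries named 3p with a mean of at least 10 RPM, 53 had such an interval. hsa-miR-28-3p had 21 reads (29.7 RPM) in the STZ library and 49 reads (96.4 RPM) in the control, a ratio of 0.308 (0.176 to 0.523), which is 3.25-fold lower. mmu-miR-28a-3p, which the tables list apart from it, had 47 reads (66.5 RPM) in the STZ library and 34 reads (66.9 RPM) in the control, a ratio of 0.994 (0.626 to 1.59). The 2 names, paired here by name as the same mature strand, thus gave different answers. Whether their human and mouse reference sequences are identical was not checked. Summed over both names, miR-28-3p had 68 STZ reads (96.2 RPM) and 83 control reads (163 RPM), a ratio of 0.589 (0.421 to 0.822).

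For miR-151 the 3p names lay closer together. hsa-miR-151a-3p had 136 reads (192 RPM) in the STZ library and 187 reads (368 RPM) in the control, a ratio of 0.523 (0.416 to 0.656). mmu-miR-151-3p had 176 reads (249 RPM) in the STZ library and 182 reads (358 RPM) in the control, a ratio of 0.695 (0.562 to 0.860). Their sum, 312 STZ reads and 369 control reads, had a ratio of 0.608 (0.521 to 0.709). The summed 3p strands of miR-28 and miR-151 therefore had nearly equal ratios, and their own ratio, miR-151-3p over miR-28-3p, was 4.59 in the STZ library and 4.45 in the control (odds ratio 1.03, 0.713 to 1.496). All 4 entries of 3p strands together had 380 STZ reads and 452 control reads, a ratio of 0.604 (0.526 to 0.694), against 0.885 (0.837 to 0.936) for the 2 entries named 5p.

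By the rule of size, a 2-fold difference on the scale of log2(RPM + 1) among named entries with a mean of at least 10 RPM, 1 of the 7 members was lower in the STZ library (hsa-miR-28-3p, log2 fold -1.67) and 0 were higher. Among all 314 entries with such a mean, 18.5% were lower and 17.8% higher, so the count among the members is near the background. All 7 members passed the minimum level. Next in size were hsa-miR-151a-3p at -0.93, hsa-miR-151b at 0.57 and mmu-miR-151-3p at -0.52. Intervals of the ratio lay below 1 for 4 members and above 1 for 1. Among the 275 named entries with at least 20 reads over both libraries these shares were 33.5% and 32.0%.

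The median log2 fold of the 7 members was -0.21, and that of all 314 entries was -0.02. The 4 members named 3p had a median of -0.73, and all 139 entries named 3p had -0.05. The members were chosen by these same arm reads, so this contrast is a description only. For the 2 members named 5p the median was -0.09, and for all 141 entries named 5p it was -0.03. In the order of folds, 12.4% of the 314 entries stood below hsa-miR-28-3p, 20.1% below hsa-miR-151a-3p and 29.0% below mmu-miR-151-3p, whereas 51.3% stood below mmu-miR-28a-3p.

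**Figure D2:**
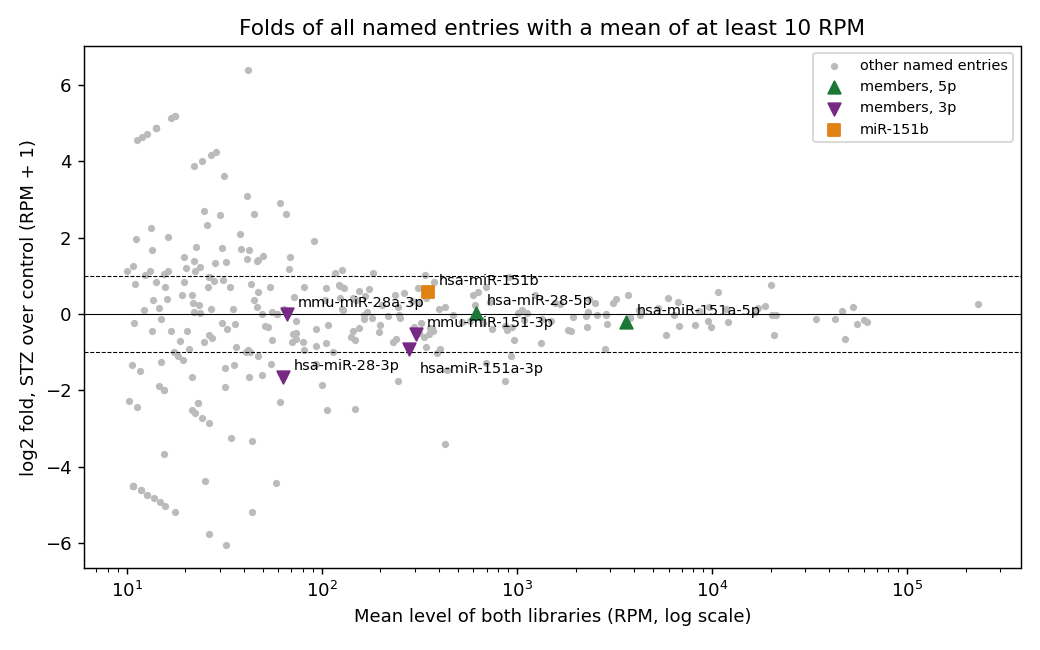
log2 fold of STZ over control (RPM + 1) against the mean level of both libraries (RPM, log axis) for the 314 named entries with a mean of at least 10 RPM; dashed lines mark a 2-fold difference. hsa-miR-28-3p, at -1.67, is the only member beyond a line, and the spread of the other entries (grey) is widest at low levels.

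Both strands of a precursor are counted in the same library, which makes their ratio independent of the library total. For miR-28, the 5p strand made up 95.5% of the human-named reads in the STZ library (Wilson interval 93.2 to 97.0) and 86.4% in the control (82.4 to 89.5), or 21.0 and 6.33 reads of 5p per read of 3p. The odds ratio was 3.32 (exact interval 1.91 to 5.94) toward the 5p strand. This is the value the members were chosen with and is given as a description. The rule found no 5p entry under a mouse name, here or for miR-151. A single 3p name thus sets all 5p reads of the rule against only part of the 3p reads. With both 3p names summed, the 5p share was 86.6% in the STZ library (83.4 to 89.3) and 78.9% in the control (74.6 to 82.6), and the odds ratio was 1.74 (1.20 to 2.51). Set against the mouse-named 3p entry alone, an alternative added after the data were seen, the shares were 90.4% and 90.1% and the odds ratio was 1.03 (0.626 to 1.68).

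For miR-151, the 5p share was 94.6% in the STZ library (93.7 to 95.4) and 91.4% in the control (90.1 to 92.5) under human names, an odds ratio of 1.65 (1.31 to 2.09). Summing the 3p names gave 88.4% (87.2 to 89.6) and 84.3% (82.8 to 85.7), an odds ratio of 1.42 (1.20 to 1.68). With the mouse-named 3p entry alone it was 1.24 (0.995 to 1.55), whose interval includes 1. Adding miR-151b to the 5p strand gave 1.73 (1.37 to 2.19) under human names and, also after the data were seen, 1.49 (1.26 to 1.76) with summed 3p names. Each of these miR-151 values was above 1 and under 2.

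Both arms reached at least 20 reads in 49 precursors, of which 14 (28.6%) had an odds ratio of at least 2 toward the 5p strand with an interval above 1, and miR-28 was among them under its human names, at the 11th place from the most 5p-shifted. An interval above 1 without the 2-fold condition was held by 42.9% of the precursors, miR-151 included, which stood at the 19th place. The neighbours of miR-28 in that order were miR-26b, one of the miRNAs of the Ctdsp introns, at 3.55 (1.40 to 10.1) and miR-99b, from a cluster with let-7e and miR-125a, at 3.22 (1.67 to 6.54). Those of miR-151 were let-7a at 1.68 (1.47 to 1.92) and miR-340 at 1.48 (1.02 to 2.15). With names summed, 23.5% of 51 precursors were 2-fold toward the 5p strand, miR-28 was not, and 39.2% had an interval above 1, both miR-28 and miR-151 included. Among the 24 precursors whose 5p strand was the more abundant, as in both members, 16 had an odds ratio above 1, with a median of 1.57, so a value above 1 is common in these libraries.

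**Figure D3:**
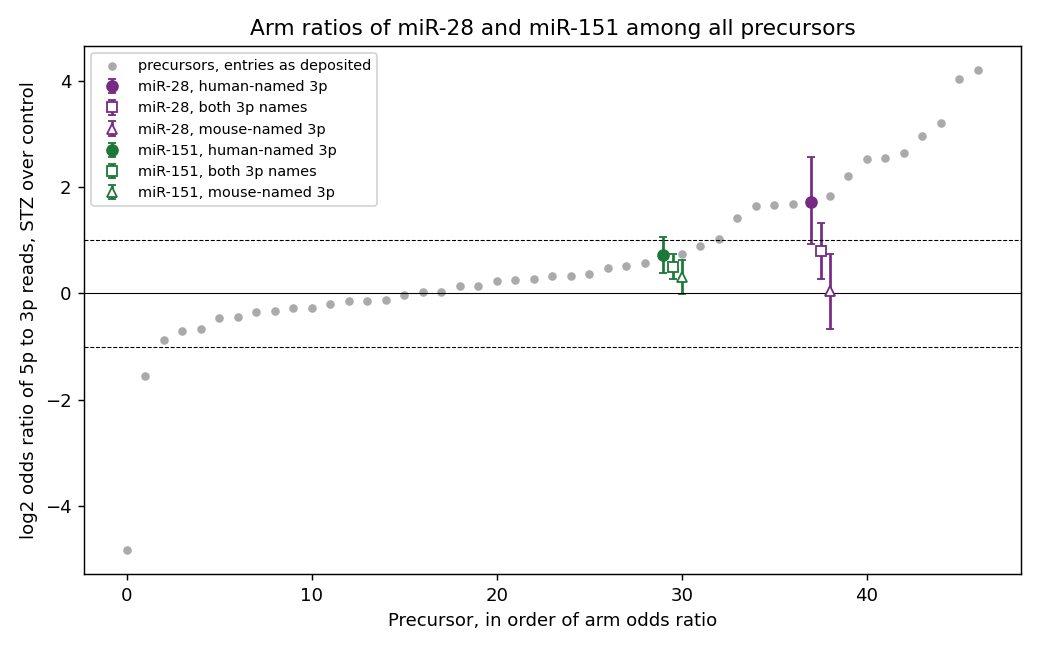
log2 odds ratio of 5p to 3p reads, STZ over control, for the 47 precursors with a finite value (2 with an arm at 0 in 1 library are not drawn), in ascending order; bars on the members are exact 95% intervals, and dashed lines mark a 2-fold odds ratio. miR-28 lies above the upper line with its human-named 3p entry (filled circle) but not with both names (square) or the mouse-named entry (triangle), while all 3 miR-151 points lie between 0 and the upper line.

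These arm values differ by which 3p name enters them. The share of 3p reads under the human name was, for miR-28-3p, 30.9% in the STZ library (21 of 68 reads, Wilson interval 21.2 to 42.6) and 59.0% in the control (49 of 83 reads, 48.3 to 69.0), an odds ratio of 0.310 (exact interval 0.149 to 0.641). For miR-151-3p it was 43.6% in the STZ library (38.2 to 49.1) and 50.7% in the control (45.6 to 55.7), an odds ratio of 0.752 (0.549 to 1.03) whose interval includes 1. The tables do not give read sequences, and the labels do not state how reads were assigned to a human or a mouse name. Over the 14 mature names with at least 20 reads under each species' name, 71.4% had an interval that leaves out 1, 6 of them (42.9% of the 14) with the lower human share in the STZ library and 4 with the higher. Intervals that leave out 1 were thus common among such names, in both directions, and the change in share differed widely between names. For miR-92a-3p the human share was 98.8% in the STZ library and 99.5% in the control, an odds ratio of 0.361 (0.152 to 0.774). For miR-155-5p it was 84.4% in the STZ library and 60.7% in the control, an odds ratio of 3.51 (1.77 to 7.02).

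**Figure D4:**
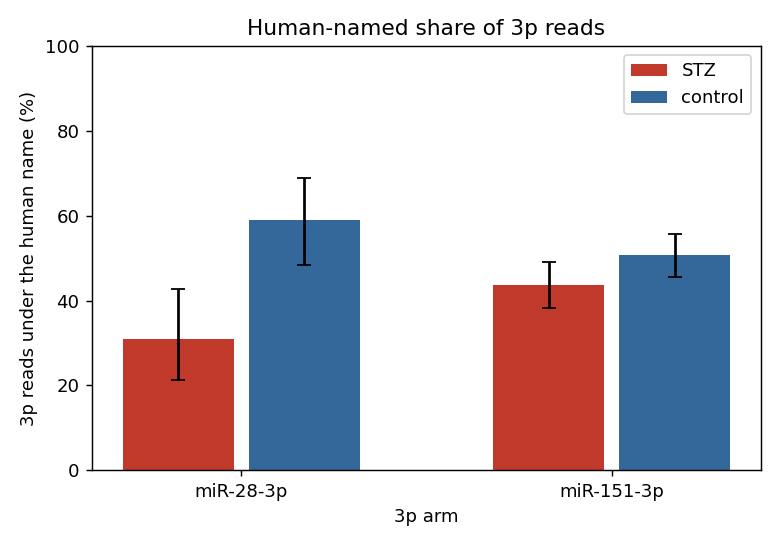
Percent of the 3p reads of miR-28 and miR-151 that stand under the human name, in the STZ library (red, left) and the control library (blue, right), with Wilson 95% intervals. For miR-28-3p the intervals do not overlap (30.9% and 59.0%), and for miR-151-3p they do (43.6% and 50.7%).

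Among the listed relatives, hsa-miR-708-5p, whose mouse strand shares the seed of miR-28a-5p, had 0 reads in both libraries, as did hsa-miR-708-3p and mmu-miR-28c. A floor of 3 reads allows a level of up to 4.24 RPM in the STZ library and 5.90 RPM in the control. Of the 2 mouse strands with the seed AGGAGCU, miR-28-5p thus had reads, at 624 RPM in the STZ library and 610.0 RPM in the control, and miR-708-5p had none.

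The entries most like each of the 4 human-named arms were found by the distance between log2(RPM + 1) values over the 2 libraries, a likeness that rests on 2 values per entry. Nearest to hsa-miR-151a-5p were let-7d-3p (3671 RPM in the STZ library and 3979 RPM in the control), miR-92a-3p and miR-181a-5p. Nearest to hsa-miR-28-5p were the minor strands miR-199a-5p (654 RPM and 561 RPM), miR-378a-5p and miR-133a-5p. hsa-miR-151a-3p lay closest to mmu-miR-351-5p (185 RPM and 293 RPM), miR-222-3p and miR-342-3p. hsa-miR-28-3p lay closest to miR-224-5p (31.1 RPM and 78.7 RPM), miR-24-1-5p and the mouse-named miR-155-5p.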

How the data were processed

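Per library, the authors deposited a non-negative signal in RPM, reads scaled so that all listed small RNAs sum to 1000000. The submitters' processing notes name the build GRCm39; aligner, miRNA reference and allowed mismatches were not given in the sources used here. Per the labels' protocols, adapters were ligated to total RNA and the library was amplified by PCR. Divided by the value of 1 read, 100.0% of deposited signals came out whole (tolerance 0.001 reads). A row with no name held a value equal to 96.6% (STZ) and 96.5% (control) of the total. The other rows sum to 1000000 without it, so it is not a further part of the library. What it stands for is not known here, and it was left out. The plan covered either unit, and the rule planned for normalized values was used: a 2-fold difference of log2(RPM + 1) at a mean of at least 10 RPM, which understates the change of low miRNAs. Ratios have exact conditional binomial (Clopper-Pearson) intervals, arm and name ratios exact conditional intervals of the odds ratio, shares Wilson intervals and levels exact Poisson intervals. With 1 library per group no test with residual degrees of freedom could be fitted. Human and mouse names were paired when equal, or when precursor names differ only by a letter a (miR-28 and miR-28a). Named miRNAs are all members, their listed relatives, the 3 nearest entries per human-named arm and the neighbours in the order of arm ratios. The muscle, liver and gut miRNAs of the tissue check are named as well. miR-28b was not analysed here beyond its sequence. Members and lists were chosen with earlier results of these data known. The interval and fold calculations were tested on simulated reads. Alternatives changed scaling (TMM, edgeR 4.0.16; median of ratios; totals without the 10 most abundant), pseudocount, minimum level, fold, name handling and arm minimum. Python 3.11.15, pandas 2.3.3, numpy 2.4.6, scipy 1.17.1, matplotlib 3.10.9 and R 4.3.3 were used.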

Additional observations from a re-analysis of the deposited data

How the results depend on the processing

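No paired analysis was possible because STZ and control had a single library each, which also leaves no library to omit. TMM, the median of ratios and totals without the 10 most abundant miRNAs moved log2 ratios by 0.0087, 0.0090 and -0.0074, and with these scalings and pseudocounts of 0.1 and 5 no member changed direction or its side of the 2-fold line. Summing names took hsa-miR-28-3p to a log2 fold of -0.76, within 2-fold, and mmu-miR-28a-3p to the same -0.76. The log2 arm odds ratio of miR-28 became 0.80 with names summed and 0.041 with the mouse-named 3p entry, and that of miR-151 became 0.31 with the mouse-named 3p entry. The alternatives' own construction, which reads enter the 3p sum, gives these changes. The 114 named entries 2-fold apart became 266 with no minimum level, 13 at a mean of 100 RPM and 58 at 4-fold, and the 17 precursors with a 2-fold arm odds ratio became 0 of 19 at 100 reads per arm. Mouse names alone gave no arm ratio, since the rule found 5p strands under human names. hsa-miR-28-3p, with 21 STZ reads, is limited most by depth.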
